A study of Mus musculus with 8 samples.

Results

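The 10 genes described here mark cardiac fibroblasts at rest or in activation: Pdgfra, Tcf21, Ddr2, Thy1, Fap, Pi16, Cd248, Meox1, Dpep1 and Cthrc1. They were taken as a given list, and each was read from its single locus in the deposited annotation, so 10 of the 35299 loci measured are members. Long RNA was sequenced from 8 hearts of C57BL/6J mice, 12 weeks old per the labels. The 4 MI hearts had a myocardial infarction, the death of muscle that follows loss of blood supply, and the 4 Sham hearts had an operation without one. The tissue was the border zone, the muscle that flanks the infarct, or the matching region in Sham, 2 weeks after surgery. The labels name no other genotype, allele or drug in either group. Groups follow the sample titles and the treatment entry, while the source entry of all MI samples reads Sham, the descriptions of MI replicates 1 to 3 name a sham infarct and that of Sham replicate 4 an infarct. The titles of the Sham samples also call them a reanalysis, which no MI title does. The labels do not say what was reanalysed, and whatever that entry stands for cannot be told apart from the infarct.

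Fibroblasts keep the collagen network around the heart's muscle cells. After an infarct they divide, move into the injured wall and lay down the matrix of the scar, and part of them become contractile myofibroblasts. Receptors and transcription factors such as Pdgfra and Tcf21 are known as marks of the resting cell, Pi16 and Cd248 from fibroblasts of the adventitia around vessels, and Fap, Meox1 and Cthrc1 from activated cells.

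Values are normalised reads, the reads of a locus divided by 1 size factor per library. The MI libraries held 165 to 190.2 M reads in loci and the Sham libraries 108 to 161 M. The heart label fits the cardiomyocyte markers, of which Actc1, cardiac actin, averaged 1281900 ± 107200 normalised reads in MI and 1388900 ± 227780 in Sham (SD, n = 4 each). On the first principal component, with 61.9% of the variance, MI replicate 2 lay at 34.8, the other MI libraries at 62.4 to 63.2 and the Sham libraries at -65.2 to -42.6. MI replicate 3 stood apart in another way: its 6 adipocyte markers summed to 14107 normalised reads, against at most 1544 in the other MI libraries and 30.7 to 64.5 in Sham. All 10 members kept their direction and call without either library. In bulk tissue, a change in the number of fibroblasts and a change in RNA per fibroblast cannot be told apart.

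Of the 10 members, 9 were higher and 1, Dpep1, was lower in MI hearts. The test was limma on log2(value + 1) across 19186 loci with a mean of at least 10, adjusted by Benjamini-Hochberg. A call was an adjusted p under 0.05, and every adjusted p below is from this fit unless another scaling, setting or test is named. By that rule 40.9% of all tested loci differed, 20.8% higher and 20.1% lower in MI, so a called gene was common in these hearts. The 4 MI libraries lay apart from the 4 Sham libraries for all 10 members, as they did for 39.6% of all tested loci, with MI above Sham in 19.7%. The median log2 difference over the members was 1.03, against -0.02 over all tested loci. An adjusted p under the threshold with a log2 difference of at least 1 was met by 6 of 10 members and by 9.04% of the tested loci. The members were chosen with earlier results of these data known, so these comparisons with all loci are a description. The plot of values by library shows all 10.

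**Figure D1:**
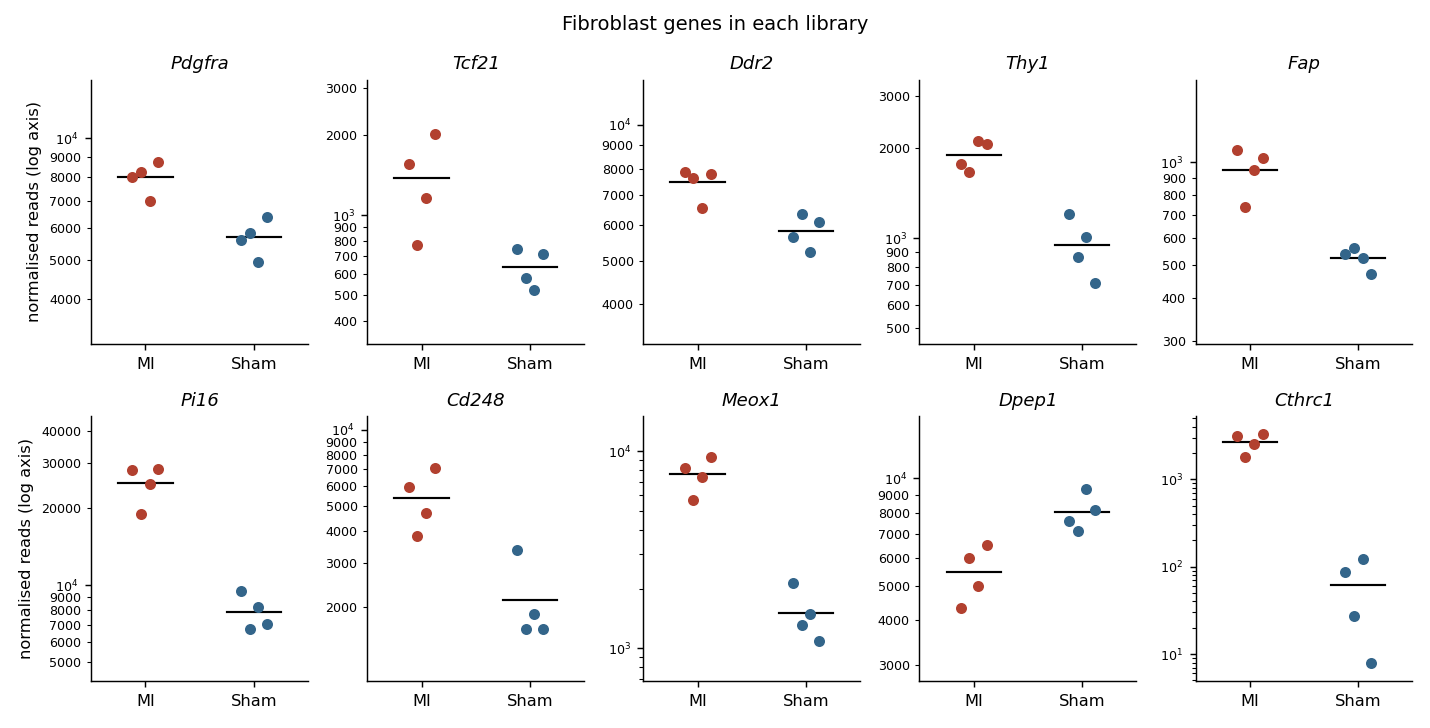
Normalised reads on a log axis for each of the 10 genes, with 4 MI libraries on the left and 4 Sham libraries on the right of each panel; points are libraries and bars are means (n = 4 each). The groups do not overlap in any panel, with MI above Sham in 9 and below it for Dpep1.

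Pdgfra and Ddr2, receptors of the resting fibroblast, had the smallest rises of the panel. Pdgfra, the receptor tyrosine kinase for platelet-derived growth factor that is widely used to mark fibroblasts, lies at chr5:75548316-75594229 (mm9, plus strand, 23 exons in its longest assembled form). It had 8014, 8262, 7000 and 8724 normalised reads in MI replicates 1 to 4, against 5594, 5834, 4935 and 6360 in Sham replicates 1 to 4. The lowest MI library was 1.10 times the highest Sham library, and the gene rose 1.41 times in mean (log2 difference 0.50 ± 0.09, SE; adjusted p = 0.00196). Ddr2, a receptor tyrosine kinase that binds fibrillar collagen (chr1:171902411-172041448, minus strand, 19 exons), had 7862, 7622, 6553 and 7787 normalised reads in MI and 5634, 6349, 5226 and 6077 in Sham. Its groups were as tight as those of Pdgfra, and its rise was the smaller (0.36 ± 0.09, adjusted p = 0.00701). In both genes replicate 3 was the lowest library of its group.

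Tcf21, the basic helix-loop-helix factor that cardiac fibroblasts need to form from the epicardium, lies at chr10:22537079-22539934 (minus strand, 2 exons). It had 1554, 774, 1159 and 2018 normalised reads in MI, against 745, 580, 523 and 713 in Sham. MI replicate 2 was almost at the level of the highest Sham library, 1.04 times above it, and the MI group spread over a coefficient of variation of 38.7%, against 16.5% in Sham. The gene rose 2.15 times in mean (1.03 ± 0.25, adjusted p = 0.00795), and the log2 difference ran between 0.82 and 1.28 with each library left out in turn.

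Scaling to the total of reads in loci, in place of the deposited size factors, moved the median of all loci to 0.29, with 44.4% of them called higher and 7.81% lower in MI, and with it the small changes: Pdgfra to 0.80, Ddr2 to 0.66 and Dpep1 to -0.27 (adjusted p = 0.0338). Relative to that median they were 0.51, 0.38 and -0.55. No member changed direction or lost its call. The share of reads in loci that lay on the mitochondrial chromosome also parted the groups, at 23.8 to 26.1% in MI and 29.2 to 32.3% in Sham, and its part in these results was not tested.

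The surface proteins Thy1 and Fap also rose. Thy1, a small glycoprotein held by a lipid anchor on fibroblasts and also on T cells and neurons (chr9:43851467-43856662, plus strand, 4 exons), had 1765, 1664, 2118 and 2065 normalised reads in MI, against 1203, 868, 1012 and 708 in Sham. Every MI library exceeded the highest Sham library, by at least 1.38 times, and the mean was 2.01 times higher (1.02 ± 0.15, adjusted p = 0.000494). The T cell markers moved with it, with 8 of 10 higher in MI, and their sums were 556 to 863 normalised reads in MI and 289 to 344 in Sham. Cd3d, part of the T cell receptor complex, averaged 23.6 ± 8.58 normalised reads in MI and 3.81 ± 1.85 in Sham, the latter near what a count of 0 allows. Trac and Cd2 of the same list did not pass (0.34 ± 0.26, adjusted p = 0.320; 0.79 ± 0.35, adjusted p = 0.0993). The part of the T cell markers in the result for Thy1 was not tested.

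Fap, a serine protease that cuts after proline and is raised on fibroblasts in wounds and tumours (chr2:62339002-62412078, minus strand, 26 exons), had 1088, 738, 949 and 1026 normalised reads in MI and 540, 563, 526 and 470 in Sham. The Sham libraries agreed to a coefficient of variation of 7.52%, and the lowest MI library, replicate 2, was 1.31 times the highest of them. Fap rose 1.81 times (0.84 ± 0.13, adjusted p = 0.000539).

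Both adventitial genes rose. Pi16, a secreted protein of the peptidase inhibitor family (chr17:29455827-29467932, plus strand, 7 exons), had 28217, 18904, 24819 and 28623 normalised reads in MI, against 9470, 6738, 8215 and 7013 in Sham. The lowest MI library was 2.00 times the highest Sham library. The mean rose 3.20 times (1.67 ± 0.14, adjusted p = 1.99e-05).

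Cd248, the transmembrane glycoprotein endosialin of stromal cells and pericytes, is a single exon at chr19:5068078-5071535 (plus strand). It had 5930, 3812, 4709 and 7066 normalised reads in MI, against 3360, 1641, 1877 and 1638 in Sham. Sham replicate 1 stood well above the other 3 Sham libraries and came near MI replicate 2, which was 1.13 times higher. Cd248 rose 2.53 times in mean (1.37 ± 0.24, adjusted p = 0.00135), and 1.61 on the log2 scale without Sham replicate 1. Part of its reads lie where an unannotated locus runs on the other strand, described with the neighbouring loci. Pericyte markers did not move together: 2 of 9 were higher and 1 was lower in MI. Their sums were 160880 to 183170 normalised reads in MI and 192520 to 217530 in Sham. The gap between these sums rests largely on the lower marker, Abcc9, which averaged 37969 ± 5574 normalised reads in MI and 75056 ± 9572 in Sham.

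The lone fall was Dpep1, membrane dipeptidase 1, an enzyme that splits dipeptides and leukotriene D4 (chr8:125709682-125728225, plus strand, 11 exons). It had 4331, 5965, 4990 and 6525 normalised reads in MI, against 7600, 7126, 9321 and 8169 in Sham. The highest MI library, replicate 4, stayed under the lowest Sham library, replicate 2. The mean in MI was 0.677 times that in Sham (-0.57 ± 0.13, adjusted p = 0.00520), and the log2 difference ran between -0.67 and -0.47 with each library left out in turn. Cardiomyocyte markers also fell in 5 of 8 cases, with sums of 3421100 to 4006200 normalised reads in MI and 4394400 to 5249700 in Sham, and their part in the fall of Dpep1 was not tested.

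Meox1 and Cthrc1, both tied to activation, had the largest log2 differences of the panel. Meox1, a homeobox transcription factor known to switch on in activated fibroblasts (chr11:101738824-101755668, minus strand, 3 exons), had 8189, 5694, 7397 and 9404 normalised reads in MI, against 2133, 1319, 1494 and 1091 in Sham. Even MI replicate 2, the lowest, was 2.67 times the highest Sham library, replicate 1. Meox1 rose 5.08 times (2.37 ± 0.20, adjusted p = 1.82e-05).

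Cthrc1, a secreted glycoprotein with a collagen-like triple helix repeat that marks matrix-producing fibroblasts of healing infarcts, lies at chr15:38908478-38918665 (plus strand, 4 exons). It had 3156, 1820, 2549 and 3272 normalised reads in MI, against 87.1, 27.3, 122 and 7.88 in Sham. The lowest MI library was 14.96 times the highest Sham library. Sham replicate 4 rested on 5 reads, with an exact 95% Poisson interval of 2.56 to 18.4 normalised reads that covers counting error only, so the Sham level was low but read in every library. The mean was 44.3 times higher in MI. The log2 difference, taken between means of logs and so weighted more by the low Sham libraries, was 6.02 ± 0.67 (adjusted p = 8.45e-05). It was the largest change of the panel and rank 8 among rises over all 19186 tested loci. The Sham libraries differed among themselves by a coefficient of variation of 86.3%, and the log2 difference ran between 5.29 and 6.55 with each library left out in turn.

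The repeat that gives Cthrc1 its name can be read in its coding sequence. Bases 178 to 285 of the 735 coding bases (chromosome 15, GENCODE M21 transcripts, GRCm38) hold 12 units of 9 bases in a row that open with a GGN codon, the codon of glycine. Only 88 of 21586 genes, or 0.408%, hold as many such units in a row, and the median gene holds 2. The capitals mark the GGN codons.
Cthrc1 collagen-like repeat: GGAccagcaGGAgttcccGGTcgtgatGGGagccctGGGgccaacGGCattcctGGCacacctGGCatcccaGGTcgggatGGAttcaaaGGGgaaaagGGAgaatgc

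**Figure D2:**
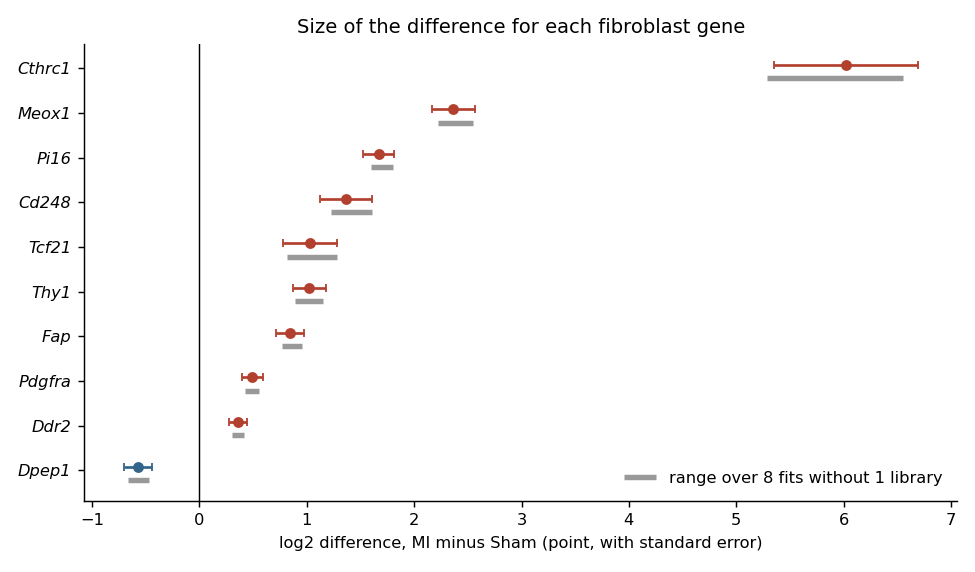
Log2 difference of each gene, MI minus Sham, with its standard error (n = 4 each), ordered by size, and in grey the range over 8 fits that each leave out 1 library. Dpep1 lies left of 0 in all of them, the other genes right of it, and Cthrc1 at 6.02 lies far from the next, Meox1 at 2.37.

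The same libraries were often at the ends of a group's range. MI replicate 2, the MI library nearest to Sham on the first principal component, was the lowest MI library for 7 of 10 members: Tcf21, Thy1, Fap, Pi16, Cd248, Meox1 and Cthrc1. MI replicate 4 was the highest for 7. In Sham, replicate 1 was the highest for 5 members (Tcf21, Thy1, Pi16, Cd248 and Meox1) and replicate 4 the lowest for 5. Without MI replicate 2 the rise of Tcf21 was 1.28, that of Fap 0.96 and that of Meox1 2.50 on the log2 scale, and Dpep1 was at -0.62.

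Per kilobase of exon, the order of the members differed between the groups. In MI hearts Pi16 was highest at 5166 ± 923 normalised reads per kilobase (SD, n = 4), followed by Meox1 at 3474 ± 704 and Cthrc1 at 2319 ± 573. Fap was lowest in MI at 224 ± 35.9, and it was the one member whose range did not meet that of its neighbour, Ddr2. In Sham hearts Pi16 at 1615 ± 257 and Dpep1 at 1522 ± 179 led with overlapping ranges, and Dpep1 stood clear of Meox1 at 684 ± 203. From Meox1 to Tcf21 at 521 ± 86.1, the ranges of neighbours in the Sham order overlapped. Below them Fap at 123 ± 9.28 and Cthrc1 at 52.4 ± 45.2 were each apart from the gene above. Cthrc1 thus ranked 3 of 10 in MI and 10 of 10 in Sham, and Dpep1 7 of 10 in MI and 2 of 10 in Sham. These levels use the union of exons of a locus. With the longest transcript instead, Pdgfra stood at 1218 in MI and 865 in Sham and ranked 5 of 10 in MI in place of 8.

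**Figure D3:**
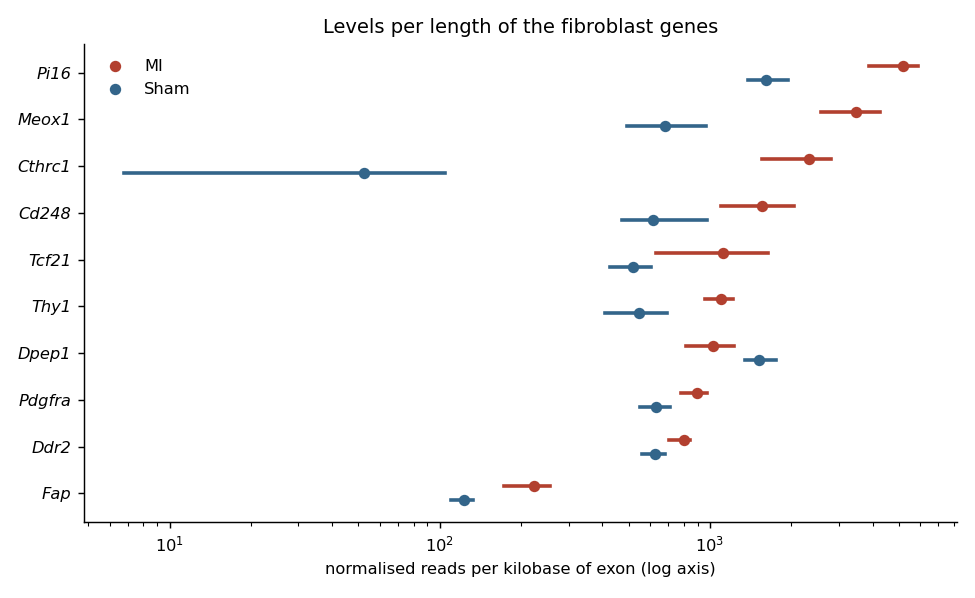
Normalised reads per kilobase of exon on a log axis for the 10 genes in the order of the MI means, with MI above Sham for each gene; points are means and lines run from the lowest to the highest of 4 libraries. Cthrc1 spans the widest gap between groups, with 2319 in MI and 52.4 in Sham, and Dpep1 is the gene whose Sham mean is higher.

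A ratio within a library depends little on how libraries are scaled to each other, so each member was also set against Pdgfra in the same heart. The ratio was log2((member + 1)/(Pdgfra + 1)). The added 1 leaves some dependence on scaling where a value is low, as for Cthrc1 in Sham replicate 4 at 7.88 normalised reads. The log2 ratio of Cthrc1 to Pdgfra averaged -1.60 ± 0.39 in MI and -7.12 ± 1.86 in Sham, a difference of 5.52. For Meox1 it was -0.08 ± 0.31 in MI and -1.95 ± 0.50 in Sham, a difference of 1.87, and for Pi16 1.64 ± 0.30 in MI and 0.46 ± 0.33 in Sham, a difference of 1.18. Dpep1 was lower against Pdgfra, at -0.57 ± 0.22 in MI and 0.50 ± 0.28 in Sham, a difference of -1.07. Pdgfra itself rose by 0.50 ± 0.09, which lowers every ratio in MI, and Dpep1 on its own differed by -0.57 ± 0.13. The ratios of Cthrc1, Meox1, Pi16 and Dpep1 did not overlap between MI and Sham libraries. The share of all loci with such a ratio was not computed.  The 4 ratios are therefore a description. The 2-sided exact permutation p of each of these 4 was 0.0286, the smallest that 4 against 4 can give. The Benjamini-Hochberg value over the 9 ratios was 0.0643, which does not pass 0.05.

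The other 5 ratios overlapped between groups. Cd248 differed by 0.87 (exact p = 0.0571), Tcf21 by 0.54 (exact p = 0.143), Thy1 by 0.53 (exact p = 0.0857) and Fap by 0.35 (exact p = 0.114). Ddr2 had the smallest difference, with a log2 ratio of -0.10 ± 0.06 in MI and 0.04 ± 0.08 in Sham, a difference of -0.14 (exact p = 0.0571). None of the 9 passed after adjustment, while 4 had an unadjusted exact p under 0.05. With 0.0286 as the smallest exact p, no ratio could pass after adjustment unless most of the 9 reached it.

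**Figure D4:**
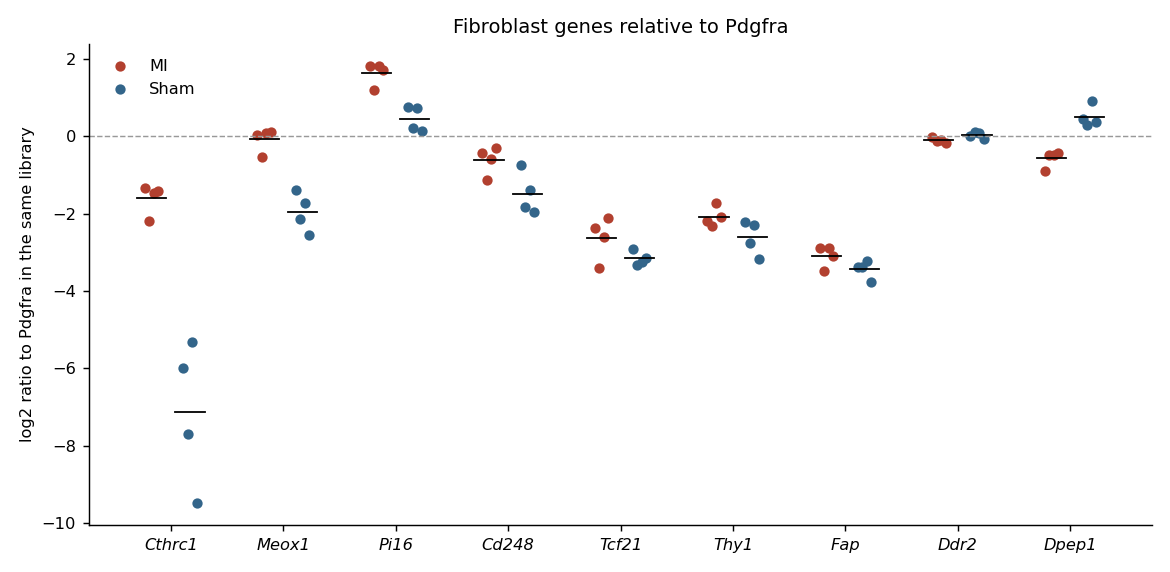
Log2 ratio of each member to Pdgfra within each library, with MI left of Sham for each gene; points are libraries and bars are means (n = 4 each), and the dashed line is an equal number of normalised reads. Cthrc1, Meox1, Pi16 and Dpep1 have groups that do not overlap, and Ddr2 lies near 0 in all 8 libraries.

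Lists of related genes were read from the same fit, by which 20.8% of all tested loci were higher and 20.1% lower in MI. Of 34 genes of activated fibroblasts, all 34 were higher in MI, with a median log2 difference of 3.18. Col11a1, a fibrillar collagen chain, rose by 6.44 ± 0.36, Comp, a matrix protein of cartilage and tendon, by 5.73 ± 0.31 and Fmod, the proteoglycan fibromodulin, by 5.35 ± 0.26. Of 24 genes of fibroblasts in general, 22 were higher and none lower (median 1.63). Lox, which cross-links collagen, rose by 4.18 ± 0.18, and the collagen chains Col1a1 and Col3a1 rose by 3.22 ± 0.26 and 3.20 ± 0.30. Pdgfrb, the sister receptor of Pdgfra, and Gsn, an actin-severing protein, did not pass (0.44 ± 0.17, adjusted p = 0.0607; -0.08 ± 0.10, adjusted p = 0.550).

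Genes of the adventitial fibroblast split. Of 17 tested beside Pi16 and Cd248, 11 were higher and 4 lower in MI (median 0.69). Fn1, fibronectin, rose by 3.06 ± 0.15, Mfap5, a microfibril protein, by 3.00 ± 0.15 and Has1, a hyaluronan synthase, by 1.93 ± 0.23. Opcml, a cell adhesion protein of the immunoglobulin family, fell by 1.10 on the log2 scale (SE 0.21) and Scara5, a ferritin receptor, by 1.04 (SE 0.07). Scara5 had 1966 to 2219 normalised reads in MI and 4080 to 4362 in Sham. Dpp4, a surface peptidase that is often named with Pi16, had 315, 260, 593 and 348 normalised reads in MI and 331, 296, 246 and 345 in Sham and did not pass (0.26 ± 0.23, adjusted p = 0.403).

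Genes of the resident heart fibroblast went in both directions. Of 23 tested, 8 were higher and 7 lower in MI (median 0.26), and 11 were higher and 5 lower with scaling to the library total. Whether reads of these genes came from fibroblasts was not resolved. Lpl, one of the lower genes, averaged 580080 ± 79386 normalised reads in MI and 890810 ± 56210 in Sham. Inmt, an amine methyltransferase, had 215, 227, 346 and 399.7 normalised reads in MI, against 1189, 1358, 1645 and 1452 in Sham (-2.29 ± 0.20, adjusted p = 2.04e-05). Ccl11, the chemokine eotaxin, was lower by a like amount (-2.18 ± 0.29), and Meg3, a long non-coding RNA, was higher (1.68 ± 0.15). The lists were chosen with results of these data known, so their counts are a description, and they share genes: Lox and Fn1 are also in the activated list, Acta2 in the activated and smooth muscle lists, Wt1 in the resident and epicardial lists, and Pdgfrb, Dpp4 and Twist1 in the list of partners and relatives.

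**Figure D5:**
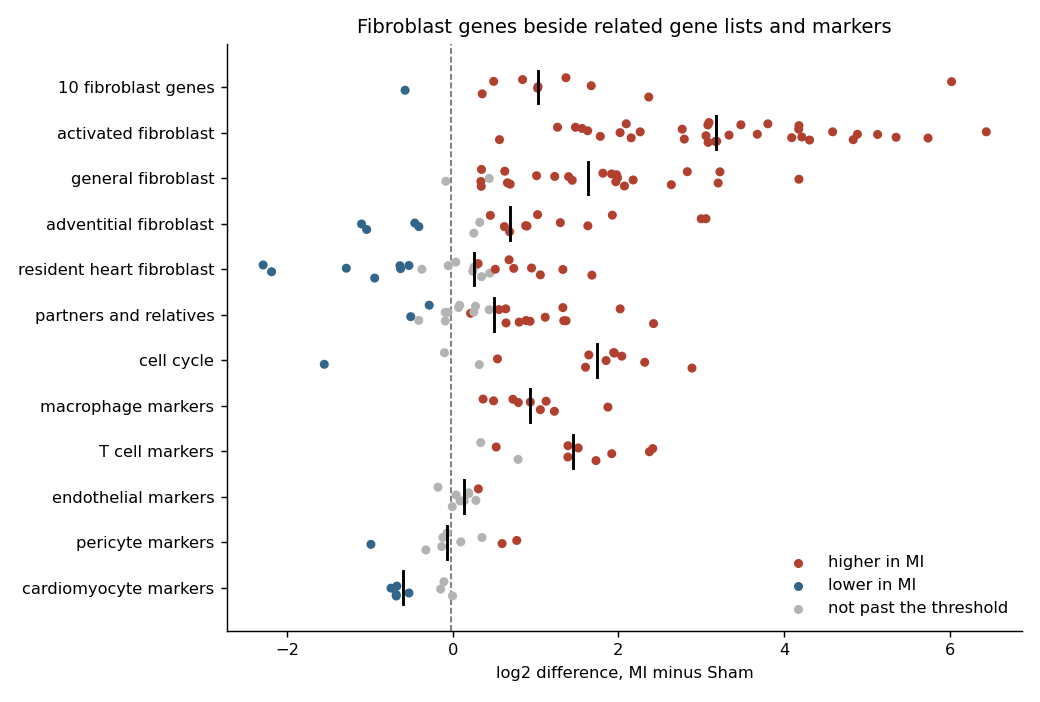
Log2 difference, MI minus Sham, for the tested genes of each list, with red for higher in MI, blue for lower in MI and grey for not past the threshold; black bars are list medians and the dashed line is the median of all tested loci, -0.02. The activated genes all lie right of 0, the resident genes lie on both sides, and Cthrc1 is the rightmost of the 10 members.

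Partners and relatives of the members were tested as a list of 24, with 13 higher and 2 lower in MI (median 0.50), and 19 higher and 1 lower with scaling to the library total. Among ligands of the PDGF receptors, Pdgfc rose (805, 516, 688 and 740.0 normalised reads in MI, against 303, 263, 341 and 188 in Sham; 1.34 ± 0.20, adjusted p = 0.000432). Pdgfa fell (4949.5 to 5445 normalised reads in MI, against 6745 to 7950 in Sham; -0.51 ± 0.07, adjusted p = 0.000310), while Pdgfb and Pdgfd did not pass (-0.09 ± 0.10, adjusted p = 0.496; -0.09 ± 0.09, adjusted p = 0.442). Ddr1, the other discoidin-domain collagen receptor, rose by 0.56 ± 0.09, somewhat more than the 0.36 ± 0.09 of Ddr2, a difference that was not tested. Meox2, the paralog of Meox1, did not pass (0.08 ± 0.17, adjusted p = 0.730), with 1845 to 2931 normalised reads in MI and 1716 to 2853 in Sham. Dpep2, a relative of Dpep1, rose by 2.02 ± 0.20, with 213 to 334 normalised reads in MI and 51.2 to 84.8 in Sham. Glipr1, of the same protein superfamily as Pi16, rose by 2.42 ± 0.30 and Itgb3, an integrin chain that pairs with Itgav and can bind Thy1, by 1.37 ± 0.12. Dpp9, a cytosolic relative of Fap, was lower (-0.28 ± 0.07).

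Cell cycle genes were higher in 9 of 12 cases and lower in 1 (median 1.75). Ccnb1, cyclin B1, rose by 2.89 ± 0.40, Cdk1, its kinase, by 2.32 ± 0.33 and Ube2c, which acts at mitotic exit, by 2.04 ± 0.28, and Cenpf, a kinetochore protein, fell by 1.55 on the log2 scale (SE 0.26). The cells these transcripts came from were not resolved.

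Markers of other cells moved as well. Macrophage markers were higher in all 9 of 9 cases, with sums of 37514 to 47982 normalised reads in MI and 21038 to 30328 in Sham. Csf1r, the receptor macrophages need to survive, rose by 0.49 ± 0.13 and C1qb, a complement protein, by 0.94 ± 0.14. Among the T cell markers given beside Thy1, Cd4 rose by 0.53 ± 0.15 and Il7r, the interleukin 7 receptor, by 2.41 ± 0.29. Of the cardiomyocyte markers Myl2, a ventricular myosin light chain, was lower (-0.68 ± 0.11), and Actc1 did not pass (-0.10 ± 0.15, adjusted p = 0.611).

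Epicardial and mesothelial markers were higher in 9 of 11 cases, and MI replicate 3 led their sums with 8531 normalised reads, against 2787 to 3123 in the other MI libraries and 851 to 2003 in Sham. Aldh1a2, which makes retinoic acid, rose by 1.14 ± 0.14, and Wt1 did not pass (0.45 ± 0.32, adjusted p = 0.287). Adipocyte markers were higher in 4 of 5 tested, with Cfd, adipsin, at 4.97 ± 1.12 and Adipoq, adiponectin, at 4.39 ± 0.97. Without MI replicate 3 the log2 differences of members were 1.08 for Tcf21, 1.67 for Pi16, 1.42 for Cd248 and 0.97 for Thy1.

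Vessel and nerve markers moved less evenly. Endothelial markers were higher in 1 of 9 cases and lower in none, with sums of 147810 to 171200 normalised reads in MI and 133020 to 176040 in Sham, and neither Cdh5 (0.19 ± 0.11, adjusted p = 0.170) nor Kdr (-0.18 ± 0.18, adjusted p = 0.463) passed. Of the pericyte markers Abcc9, a channel subunit, was lower (-0.99 ± 0.12) and Rgs5 did not pass (-0.12 ± 0.07, adjusted p = 0.206). Smooth muscle markers were higher in 3 of 8 and lower in 1, Smtn (-0.31 ± 0.08), while Des did not pass (0.26 ± 0.13, adjusted p = 0.141). Schwann and nerve markers were higher in 3 of 8 and lower in 3, with Ncam1 at 1.83 ± 0.16 and Cdh19 at -0.46 ± 0.15. Lymphatic markers were higher in 2 of 6 and lower in 1, with Flt4 at 0.31 ± 0.09 and Prox1 at -0.62 ± 0.12. A listed marker was at 0 in at least 1 library in the adipocyte list (2 genes), the epicardial list (1) and the lymphatic list (1), and in no other marker list. In bulk tissue the cells that gave the reads of a listed marker were not resolved, Prox1, Des and Abcc9 included. The part of these cell types in the results for the members was not tested.

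The 10 members lie on 10 different chromosomes. Within 50 kb of them the assembly holds 48 other loci, of which 5 overlap a member. Of the 35 tested, 9 were higher and 7 lower in MI, beside 20.8% higher and 20.1% lower over all tested loci. At the 3' end of Cd248 an unannotated locus runs on the other strand (chr19:5070540-5075745) and shares 996 of the 3458 exonic bases of Cd248. It had 77.6, 44.5, 34.6 and 65.4 normalised reads in MI and 14.3, 20.5, 20.5 and 12.6 in Sham (1.61 ± 0.31, adjusted p = 0.00194). The sources used here do not state whether the libraries keep the strand, so reads of this locus and of Cd248 cannot be told apart there. Another unannotated locus shares 1862 of the 4867 exonic bases of Pi16 on the other strand, at a mean of 1.07 normalised reads in MI and 0.394 in Sham, both under what a count of 0 allows. The genes 3110045C21Rik and Chmp1a share 116 bases with Ddr2 and 62 bases with Dpep1 and did not pass. An annotated locus on the plus strand spans Tcf21 (chr10:22533505-22543585) and shares 0 exonic bases with it. It was higher in MI, at 105 ± 40.2 against 55.4 ± 3.41 normalised reads in Sham (0.82 ± 0.28, adjusted p = 0.0375), with its lowest and highest MI libraries replicates 2 and 1.

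Among the nearest called neighbours, Tmem151a beside Cd248 rose by 1.03 ± 0.29, and Sult5a1, a sulfotransferase family member beside Dpep1, by 0.70 ± 0.19, while Spata2l on the other side of Dpep1 was lower (-0.47 ± 0.15). Mtch1 beside Pi16 rose by 0.27 ± 0.09 and BC004004 was lower (-0.63 ± 0.08). Rnf26 beside Thy1 rose by 0.46 ± 0.13, and Usp2, a deubiquitinase, was lower (-0.70 ± 0.11). An unannotated locus 21220 bases from Meox1 rose by 0.88 ± 0.23, at 93.5 ± 21.8 normalised reads in MI and 49.7 ± 8.30 in Sham. No tested neighbour of Ddr2, Fap or Cthrc1 passed, and Pdgfra had none that was tested.

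Promoter sequence was at hand for 5 of 10 members from RefSeq (GRCm38.p6): Pdgfra, Tcf21, Ddr2, Pi16 and Dpep1. The 250 bases before the start of Pi16, the member with a promoter entry that rose most, and of Dpep1, the member that fell, are shown on the strand of the gene.
Pi16, chr17:29318632-29318881, plus strand: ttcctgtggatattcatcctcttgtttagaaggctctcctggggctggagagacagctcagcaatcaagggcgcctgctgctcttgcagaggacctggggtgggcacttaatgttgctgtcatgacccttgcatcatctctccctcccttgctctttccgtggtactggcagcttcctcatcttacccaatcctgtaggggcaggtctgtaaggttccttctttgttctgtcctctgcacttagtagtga
Dpep1, chr8:123185985-123186234, plus strand: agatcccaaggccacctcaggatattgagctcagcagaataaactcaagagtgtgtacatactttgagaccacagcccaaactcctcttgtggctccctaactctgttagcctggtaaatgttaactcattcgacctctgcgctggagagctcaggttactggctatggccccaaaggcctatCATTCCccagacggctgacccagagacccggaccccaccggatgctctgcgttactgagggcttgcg
The capitals in Dpep1 mark the lone match in these 2 windows to any of 5 motifs searched on both strands, the reverse complement of GGAATG, a TEAD-type element, 67 bases before the start. GGAATG was present in 1 of 5 members and in 12.6% of 32851 promoters. TATAAA was present in Ddr2 alone, 185 bases before the start, and in 12.4% of promoters. TGANTCA, the AP-1 element, CAGCTG, an E-box, and TAATTA, a homeobox core, matched none of the 5, against 6.75%, 13% and 4.84% of all promoters. A match is a run of letters and not a bound site.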

How the data were processed

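Libraries were poly(A)-selected, per the labels' protocols. The submitters' processing notes name build mm9 with DESeq, HTSeq 0.5.4p2, Cufflinks 2.0.2 and TopHat2 2.0.5, with no settings or roles. The authors deposited 1 normalised signal per locus and library. In each library 100% of values were whole multiples of its smallest step, within 1e-06, so reads were recovered. A count of 0 allows up to 3 reads, 1.99 to 4.73 normalised reads; floors and intervals cover counting error only. Per the series text the 4 replicates of a group are biological, and the libraries of a group differed beyond sampling noise (chi-square over its degrees of freedom 31.2 to 133 within groups).

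Loci were named by exon and intron lengths shared with GENCODE M21 (decoys gave 1.51% of names), and Cd248 as a locus of 1 exon by its span in RefSeq and its order between Rin1 and Yif1a. Gene coordinates are mm9. Testing used limma 3.58.1 (R 4.3.3), trend option on, on log2(value + 1), MI against Sham, 2-sided, and the pseudocount of 1 understates changes of low loci. The fit was tested on simulated data, and a gene that did not pass is not shown to be unchanged. Alternatives were other pseudocounts, filters and scalings, edgeR 4.0.16, DESeq2 1.42.0, limma-voom, a replicate block and each library left out. Python 3.11.15 with scipy 1.17.1 served for the rest.

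Named beside the members were, for each related list, the 3 called genes with the largest change and up to 2 that went against the list, for each marker list the 2 of highest level, and up to 2 called neighbours a member, nearest first. Pdgfrb, Gsn, Dpp4, Pdgfb, Pdgfc, Pdgfd, Ddr1, Meox2, Cd3d, Trac and Cd2 were named after their values were seen. The members and lists were chosen with earlier results of these data known.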

Additional observations from a re-analysis of the deposited data

Results flagged for a closer look

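Of 38 groups of 4 libraries checked, levels and ratios of the members in MI and in Sham, 4 held a library far from the other 3. Chance alone would give about 1 in 20 groups if they were independent. These groups are not, because they come from the same libraries and all ratios share Pdgfra, so that rate is only a rough guide. Cd248 stood at 3360 normalised reads in Sham replicate 1, against 1638 to 1877 in the other Sham libraries. The log2 ratio of Meox1 to Pdgfra was -0.54 in MI replicate 2, against 0.03 to 0.11 in the other MI libraries. The ratio of Cthrc1 to Pdgfra was also low in MI replicate 2, at -2.18, against -1.46 to -1.34 in the other MI libraries. The ratio of Dpep1 to Pdgfra was -0.89 in MI replicate 1, against -0.49 to -0.42 in the other MI libraries.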

How the results depend on the processing

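All 10 members kept their direction and call under the 8 fits that each leave out 1 library and the 12 other settings, with 9 higher and 1 lower in every one. The highest adjusted p under any of them was 0.0338, for Dpep1 with scaling to the library total. With that scaling 44.4% of all tested loci were higher and 7.81% lower in MI, against 20.8% and 20.1%, the adventitial list had 12 genes higher and 2 lower in place of 11 and 4, the partners list 19 and 1 in place of 13 and 2, and the resident list 11 and 5 in place of 8 and 7. Within 200 kb in place of 50 kb of the members, 23 of 95 tested neighbouring loci were higher and 16 lower. With a replicate block the members were again 9 higher and 1 lower, the resident list 10 higher and 7 lower, and the partners list 15 higher and 3 lower. Deviations of same-numbered libraries correlated at 0.146, 0.272, 0.160 and -0.000918, and those of differently numbered libraries at -0.393 to 0.284. With 4 libraries a group, these values do not settle whether the replicate numbers pair the libraries. The ratios to Pdgfra cannot pass with 1 library left out (smallest exact p 0.0571) or as sign flips within numbers (smallest exact p 0.125).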
